A study of Rattus norvegicus with 6 samples.

Results

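Circular RNA candidates that the lists of only 1 of 2 callers held, yet held in every library, were described in the rat pineal gland. Each of 6 libraries came with a candidate list in the format of the caller find_circ and with a main circRNA table in the format of the caller CIRI. A candidate was taken when its chromosome, start and end appeared in all 6 find_circ lists and in none of the 6 main tables. This left 266 candidates of 14407 distinct find_circ candidates. They made up 41.3% of the 644 candidates listed in all 6 libraries, and the other 378 had the same ends in a main table. Members were thus chosen by the read counts of these libraries, at least 2 reads per listing, so presence in 6 lists and absence from the main tables are not results. Found by find_circ alone means here listed in no main table. Whether CIRI detected such a junction before its table was made was not tested.

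A circular RNA forms when the splicing machinery joins the end of an exon to the start of the same or an earlier exon. The reads that reveal it cross this back-splice junction in an order that does not exist in the genome. find_circ takes short anchors from both ends of a read that could not be aligned whole, places them in reversed order and extends them to a break between splice signals. CIRI starts from the alignment of the whole read and also counts reads that cross the same ends without back-splicing, called linear reads here. The pineal gland secretes melatonin at night, and its transcripts change widely between day and night.

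Total RNA was sequenced from the pineal glands of 6 rats aged 8 weeks, 1 library per rat. The labels contradict each other on time. By title and time tag, C01–C03 are night samples (4:00) and C04–C06 day samples (16:00), whereas the treatment protocol has C01–C03 killed in sunlight between 16:00 and 17:00 and C04–C06 in darkness with red light between 04:00 and 05:00. The groups are named by rat number (n = 3 each), each difference is that of C01–C03 over C04–C06, and none is assigned to day or night. No strain or sex is given in the labels. The find_circ lists held 2843 to 4803 candidates and 17641 to 30119 reads; C04 had the shortest list and C05 the longest.

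The candidates found by find_circ alone in every library took 14.0%, 14.4% and 14.7% of the list's reads in C01–C03. In C04–C06 they took 14.4%, 14.3% and 15.5%. The 378 that a main table shared took 37.0% to 41.1% over the 6 libraries. Both sets were chosen by their reads in every list, so the evenness of these shares is not a result. The group means were 14.4% ± 0.311 and 14.8% ± 0.677 (SD, n = 3 each; p = 0.6 by a two-sided exact permutation test, which cannot go below 0.1 with 3 against 3). Most of the 266 were sparse: the median of the mean reads per library was 7.25 (quartiles 4.83 and 11.5), and 74 had a mean under 5 reads. A mean of 20 or more reads was reached by 24 (9.02%), beside 117 of the 378 candidates that a main table shared (31.0%). The median over the 378 was 11.7 reads. All candidates found by find_circ alone, in any number of libraries, numbered 12896, of which 10266 (79.6%) were in a single list.

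A few candidates carried much of the signal. The 3 with most reads held 24.8% of the reads of all 266, and the top 10 held 35.1%. First was chr5:90818736-90827570 on the plus strand, which spans 8835 bases, with 370, 448 and 494 reads in C01–C03 and 151, 320 and 225 in C04–C06. Second was chr3:67723614-67757148 on the minus strand, spanning 33535 bases, with 270, 266 and 230 reads against 224, 309 and 273. Next came the very short chr5:58994723-58994911, of 189 bases on the plus strand, with 256, 190 and 214 against 289, 331 and 216. These 3 stood apart from the rest: the fourth, chr8:93334030-93350656, had 68 to 117 reads per library, and the fifth, chr16:70754390-70761776, had 24 to 78. None of the second to the fifth overlapped any circRNA of the main tables.

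The remaining 5 of the 10 with the highest mean normalised count were chr2:210885767-210886242 (24 to 66 reads per library), chr10:58342533-58353726 (35 to 53), chr13:90617728-90658408 (19 to 62), chr1:244630341-244728217 (26 to 58) and chr13:100427452-100436465 (20 to 39). The spread over rats was modest for the most even of the abundant candidates. For the chr8 candidate the highest normalised count was 1.25 times the lowest, and for the chr3 candidate 1.37 times. Over the 24 candidates with a mean of 20 or more reads this ratio had a median of 2.12, and its highest value, 5.22, belonged to chr6:133825329-133826293. Over the other 242 the median ratio was 3.59.

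**Figure D1:**
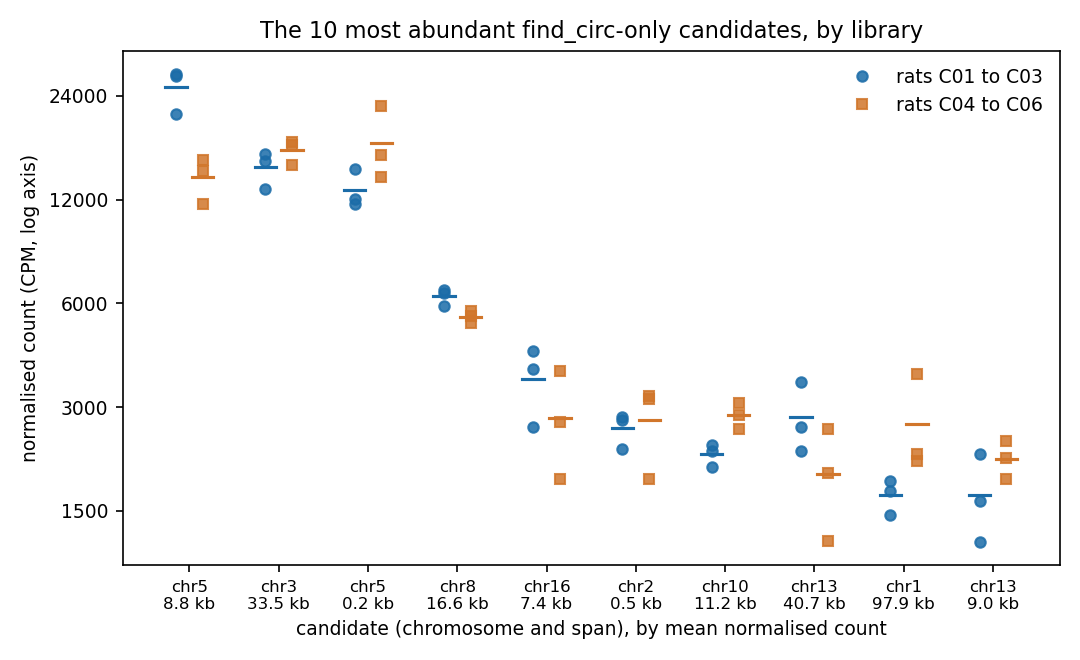
Normalised counts (CPM, log axis) of the 10 most abundant find_circ-only candidates, labelled by chromosome and span, with 1 point per library and a bar at each group mean (n = 3 each). The first candidate, on chromosome 5, has all C01–C03 points above all C04–C06 points, and most of the others overlap between the groups.

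The group comparison asked which candidates differed between the glands of C01–C03 and those of C04–C06. It was fitted over every find_circ candidate that reached 2 reads in 3 or more libraries (2208), and normalised counts are given as CPM, counts per 1000000 of these reads. One of the 266 passed, chr5:90818736-90827570, with 25440 ± 3671 CPM in C01–C03 and 13951 ± 2038 in C04–C06 (SD, n = 3 each). Its log2 difference was 0.86 (SE 0.16, edgeR quasi-likelihood adjusted p = 0.013). All 3 libraries of C01–C03 lay above all 3 of C04–C06, also in raw reads. Over all tested candidates 0.0906% passed, all of them higher in C01–C03. Counting distinct read sequences in place of reads gave a smaller log2 difference of 0.64 (SE 0.12, edgeR adjusted p 0.0038), from 127, 141 and 165 against 70, 106 and 93 distinct reads.

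This call needed most of the rats. Without C03, C04, C05 or C06 it was lost (edgeR adjusted p 0.089, 0.30, 0.23 and 0.86), while the log2 difference stayed between 0.77 and 0.99 over the 6 fits that each left out 1 rat. Without C01 or C02 it was kept.

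No other of the 266 passed. On the higher side the next by unadjusted p were chrX:119152559-119152714, of 156 bases and the shortest of all 266, with 32, 41 and 39 reads against 16, 26 and 19 (log2 difference 0.80, SE 0.30), and chr4:22084945-22091386 with 32, 27 and 32 against 18, 18 and 13 (0.78, SE 0.34). Their groups did not overlap in reads, but the edgeR adjusted p was 0.78 for both. On the lower side none passed over the 2208 in edgeR or DESeq2, 7 had an unadjusted edgeR p under 0.05, and limma-voom called 2, chr6:133825329-133826293 (adjusted p 0.036) and chr5:58994723-58994911 (adjusted p 0.0017). In its other 13 alternatives the chr5 candidate did not pass. The chr5 candidate of 189 bases had 12766 ± 1662 against 17494 ± 4348 CPM (SD, n = 3 each) with overlapping groups, and its log2 difference of -0.45 (SE 0.17) moved to -0.16 when distinct reads were counted.

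As a list, the 266 were close to all tested candidates in the shares with an unadjusted p under 0.05 or without overlap. The median absolute log2 difference was 0.41 in the 266, 0.32 in the 378 and 0.65 over all tested. Their median log2 difference was -0.08, with quartiles -0.44 and 0.37, beside 0.02 over all 2208. A positive difference was found for 119 of them (44.7%), beside 51.2% of all tested. An unadjusted edgeR p under 0.05 was found for 11 (4.14%), beside 5.39% of all tested. The groups did not overlap for 31 (11.7%), 14 higher and 17 lower, beside 11.1% of all tested (5.84% higher and 5.25% lower). Of the 378, 51.1% had a positive difference, 6.08% an unadjusted edgeR p under 0.05 and 14.0% no overlap. A candidate had to be in every list to be counted here, so candidates listed in 1 group only could not enter. Fitted over the 644 candidates of all 6 lists, 14 of the 266 had an unadjusted edgeR p under 0.05, beside 43 of the 644 (6.68%).

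**Figure D2:**
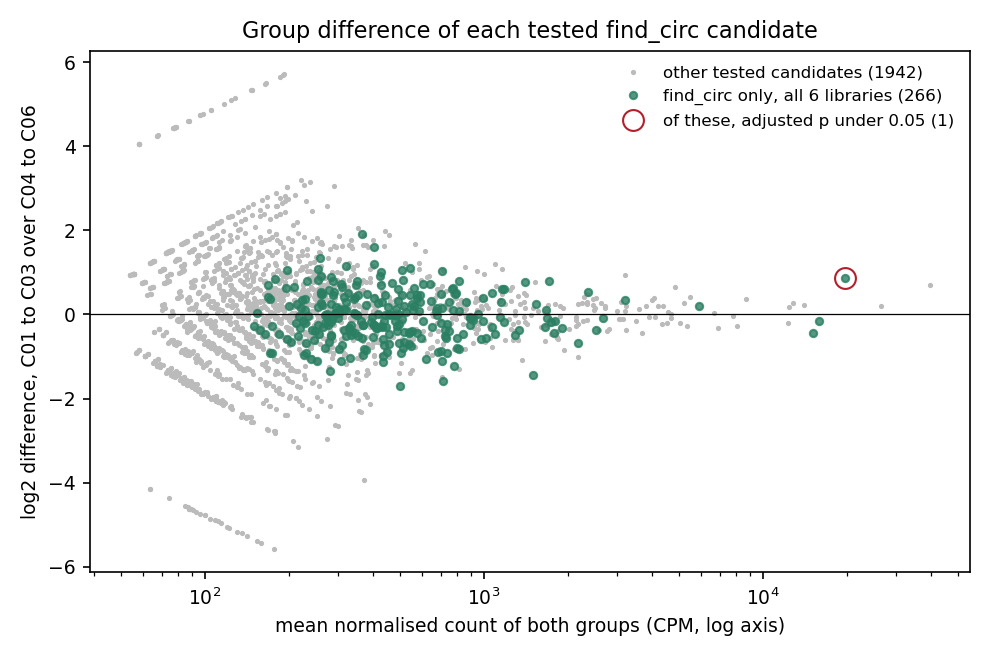
Log2 difference (C01–C03 over C04–C06) against the mean normalised count (CPM, log axis) for all 2208 tested find_circ candidates, 1 point each, with the 266 found by find_circ only in every library in green and the 1 that passed an adjusted p of 0.05 ringed. The ringed point is also the most abundant of the green points.

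The ends of chr5:90818736-90827570 both occur in the main tables, but in different circRNAs. Its end is shared with the intergenic chr5:90817794-90827570, which starts 942 bases earlier and was listed in all 6 libraries with 53, 26 and 30 back-splice reads in C01–C03 and 45, 46 and 40 in C04–C06. In the main tables that circRNA differed by -0.16 on the log2 scale (SE 0.25, unadjusted p 0.54 in edgeR), where 1.55% of 772 tested circRNAs passed. Its linear reads were 127 in C01 and 393 to 561 in the other 5 libraries. The start is shared with the exonic chr5:90818736-90880617, which the main tables listed in C01 alone, with 374 back-splice reads and 644 linear reads. find_circ gave no read to those ends in any library, and gave 370 reads to the shorter candidate in C01. The 374 and 370 reads thus stand at the same start with ends 53047 bases apart. The other find_circ candidates at either end of chr5:90818736-90827570, apart from chr5:90817794-90827570 with 220 reads, had at most 10 reads over all libraries.

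Among the named candidates the lowest p on the lower side belonged to a compact stretch of chromosome 6. chr6:133825329-133826293, of 965 bases on the plus strand, had 17, 15 and 10 reads in C01–C03 and 21, 60 and 31 in C04–C06, or 818 ± 224 against 2186 ± 671 CPM (SD, n = 3 each). Every library of C04–C06 lay above every library of C01–C03. The log2 difference was -1.43 (SE 0.34), with an edgeR unadjusted p of 0.00018 and an adjusted p of 0.13. Fitted over only the 644 candidates listed in all 6 libraries, of which 0.621% passed, it was called (edgeR adjusted p 0.0089); over its 14 alternatives the adjusted p ran from 0.0089 to 0.86.

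Within 10 kb lay 3 more of the 266, all on the plus strand, singled out after their values were seen. chr6:133825352-133826934 had 5, 10 and 3 reads against 10, 22 and 21 (log2 difference -1.59, SE 0.55). chr6:133825148-133829871 had 5, 8 and 10 against 12, 13 and 21 (-1.10, SE 0.53), and chr6:133825332-133826293, which starts 3 bases after the first, had 3, 9 and 6 against 5, 16 and 6 (-0.58, SE 0.73). The edgeR adjusted p was at least 0.78 for each of these 3. Together the 4 held 30, 42 and 29 reads in C01–C03 and 48, 111 and 79 in C04–C06. They overlap one another and are not independent, and no main-table circRNA overlapped them. Reads with both anchors placed uniquely made up 50.6%, 84.5%, 46.4% and 68.9% of their reads in the order given here, beside 95.1% ± 0.284 (SD, n = 6) of the reads of all 266 per library. Whether anchor placement has a part in the group difference was not tested.

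Anchor quality was set beside that of the 378 candidates that a main table shared. Every find_circ listing carried the GT-AG splice signal and a single possible breakpoint. find_circ scores the best anchor on each side by its margin over other placements, up to 40, and both anchors had this maximum in every library for 139 of the 266 (52.3%) and 242 of the 378 (64%). No mismatch in any library was reported for 240 (90.2%) and 366 (96.8%). Reads whose anchors were both unique were 95.1% ± 0.284 and 95.6% ± 0.233 of the reads per library (SD, n = 6). Under 75% of reads had both anchors unique for 9 of the 266 (3.38%) and 9 of the 378 (2.38%). These 9 include 3 of the chr6 candidates above and the abundant chr13:90617728-90658408, where only 18.2% of 242 reads did. None of the 9 overlapped a main-table circRNA. These comparisons were not tested, because the calling of a junction rests on the same reads. They were also not matched for reads. The median of the mean reads per library was 7.25 in the 266 and 11.7 in the 378, and a best score is taken over fewer reads in a sparse candidate.

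Distinct read sequences made up 61.9% of the reads of the 266 and 56.8% of those of the 378, as means over libraries, and the difference of 5.16 percentage points (SD 1.18, n = 6) had the same sign in all 6 libraries. The share was lower for candidates with more reads. Binned by reads over all libraries, the median was 77.0% in the 266 and 77.1% in the 378 at 10 to 19 reads, 76.2% and 77.1% at 20 to 29, and 76.0% and 74.7% at 30 to 49. At 50 to 99 reads it was 72.5% for 81 of the 266 and 71.5% for 116 of the 378. At 100 reads and more, a bin with no upper limit, it was 65.2% for 31 and 63.8% for 134. The 266 were thus lower in the first 2 bins and higher in the other 3. Among the 50 most abundant of the 266, the lowest shares were 34.1%, 35.0% and 36.6%, at chr3:67723614-67757148, chr5:90818736-90827570 and chr5:58994723-58994911, which also had the most reads. The highest were 85% at chrX:119152559-119152714, 80.7% at chr13:107099509-107123229 and 76.8% at chr9:65938642-65939855. For the chrX candidate, 147 of 173 reads were distinct, although its span is only 156 bases. By group the share was 61.6% ± 1.16 in C01–C03 and 62.2% ± 1.39 in C04–C06 (SD, n = 3 each, p = 0.7 by the same exact permutation test). That test cannot go below 0.1 and so could not have called a difference.

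**Figure D3:**
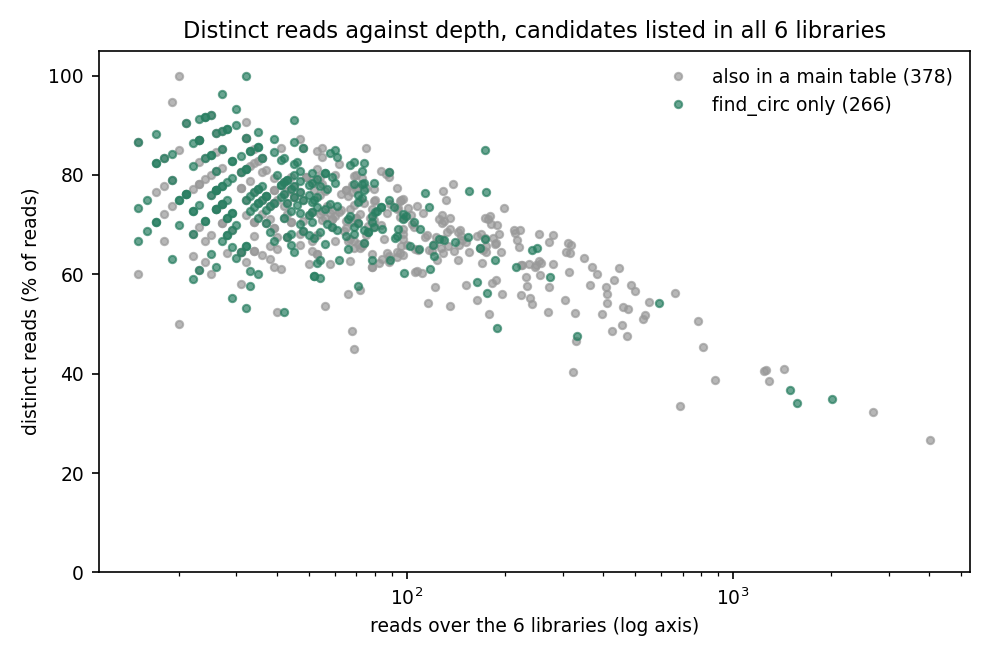
Distinct reads as a percentage of reads against the reads over the 6 libraries (log axis) for the 644 candidates listed in every find_circ list, 1 point each, with the 266 absent from the main tables in green and the 378 present there in grey. The share falls as reads increase in both sets, and the 3 green points with most reads lie at 34.1% to 36.6%.

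The 266 spanned 156 to 97877 bases and the 378 spanned 238 to 98850. The median genomic span was 11676.5 bases (quartiles 3936.5 and 25735), with an order-statistic 95% interval of 9568 to 14286, and was 12261.5 in the 378 (quartiles 4156 and 25881.5). That interval treats the candidates as independent, which those that share an end are not. Spans under 1 kb were found for 28 (10.5%) and 33 (8.73%). The shortest after chrX:119152559-119152714 were chr1:102669863-102670039 (177 bases, 18 to 35 reads per library) and chr1:102669863-102670043 (181 bases, 11 to 19 reads), which share their start and end 4 bases apart. The longest were chr1:244630341-244728217 (97877 bases), chr19:34249087-34346224 (97138) and chr5:129621176-129709689 (88514). The find_circ lists end just under 100 kb, at 99870 bases, whereas the main tables reach 199893 and hold 103 circRNAs longer than 100 kb, so neither set includes longer junctions.

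Candidates lay on all 20 autosomes and on X, led by chromosome 1 with 30 and chromosome 6 with 27. Chromosome 12 had 2 of the 266 and 17 of the 378. On the plus strand were 157 (59.0%) of the 266 and 192 (50.8%) of the 378. When candidates joined by a shared end were counted once, 119 of 211 loci (56.4%) were on the plus strand. No test was made of these shares.

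Most of the 266 lay apart from the circRNAs of the main tables. No overlap with any of the 2228 main-table circRNAs was found for 190 (71.4%). A further 42 lay inside a main-table circRNA, 29 contained one and 5 overlapped one in part. An end was shared with a main-table circRNA by 66 (24.8%, 95% Wilson interval 20% to 30.3%), of which 62 shared one end and 4 shared both ends with different circRNAs. The start was shared by 37 and the end by 33. For comparison, an end was shared by 41 of 202 find_circ-only candidates listed in 5 libraries (20.3%) and by 10.3% of the 12428 listed in fewer. The interval covers counting error only, and candidates at 1 locus are not independent. Within the find_circ lists sharing was common: 217 of the 266 (81.6%) had an end in common with some other candidate.

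The main-table circRNAs at the shared ends numbered 56 and gave 88 pairs, and in all 88 both callers named the same strand. Of the 56, 36 were exonic (64.3%), 12 intronic (21.4%) and 8 intergenic (14.3%), beside 60.0%, 10.3% and 29.7% of all main-table circRNAs. They were abundant, with a median of 133.5 back-splice reads over all libraries beside 9 for all main-table circRNAs. Only 19 of the 56 were listed in all 6 main tables. Their median circular share was 14.0% beside 15.6% for all, and no listing in the main tables fell below 9.09%. This share is doubled back-splice reads over the sum of doubled back-splice reads and linear reads. It is therefore larger than the plain part of back-splice reads among the reads at the ends. Linear reads were not available at the ends of candidates that the main tables lack.

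At a shared end the main-table circRNA mostly had more find_circ reads than the candidate. With the circRNA of most back-splice reads taken for each candidate, 64 of 66 had one that find_circ also listed; chr5:90818736-90827570, set there against the circRNA of 374 reads, did not. The candidate had more reads in 7 of these 64, and its reads were 22.9% of the circRNA's in the median. Choosing the circRNA of most back-splice reads leans towards the circRNA. Some circRNAs also recur for several candidates, so the 64 pairs are not independent. The candidate was the longer of the pair in 30 of 66. By reads, the candidates after chr5:90818736-90827570 were chr1:244630341-244728217 with 30, 30 and 26 reads in C01–C03 and 27, 45 and 58 in C04–C06, and chr1:244630341-244641499 with 22, 12 and 26 against 21, 15 and 34. Both start where the exonic chr1:244630341-244664389 starts, which had 98 to 162 find_circ reads per library and which the main tables held in the C04, C05 and C06 libraries alone. chr17:5559657-5571375 and chr13:106893746-106930882, with 12 to 31 and 8 to 31 reads per library, came next.

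Of the 56 circRNAs at shared ends 35 could be tested in the main tables, where a circRNA not listed in a library was counted as 0. Of the 35, 4 passed, beside 12 of all 772 tested (1.55%), and are named here after their values were seen. chr3:104816866-104818862 was higher in C01–C03 (log2 difference 0.65, SE 0.10, edgeR adjusted p 0.036). The other 3 were chr1:244630341-244664389, chr13:106859710-106862333 and chr13:106893746-106944389, which the main tables listed in none of C01–C03 and in all of C04–C06, with 182, 182 and 169, with 97, 101 and 81, and with 32, 50 and 49 back-splice reads. These 3 met the filter of 2 reads in 3 libraries only through C04–C06, so their calls restate that listing. find_circ listed the same 3 circRNAs in every library. Its reads at chr1:244630341-244664389 were 143, 130 and 124 against 98, 162 and 124. At chr13:106859710-106862333 they were 97, 72 and 70 against 52, 100 and 69, and at chr13:106893746-106944389 80, 35 and 34 against 25, 52 and 31. The find_circ lists and the main tables thus differed on these circRNAs in C01–C03, and the groups overlapped in the find_circ reads of all 3. The reason for their absence from those main tables was not tested. Leaving out C04, C05 or C06 puts these 3 circRNAs below the 3 libraries needed for testing, so their calls have no such check; none of the 30 or 31 circRNAs that could still be tested passed.

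**Figure D4:**
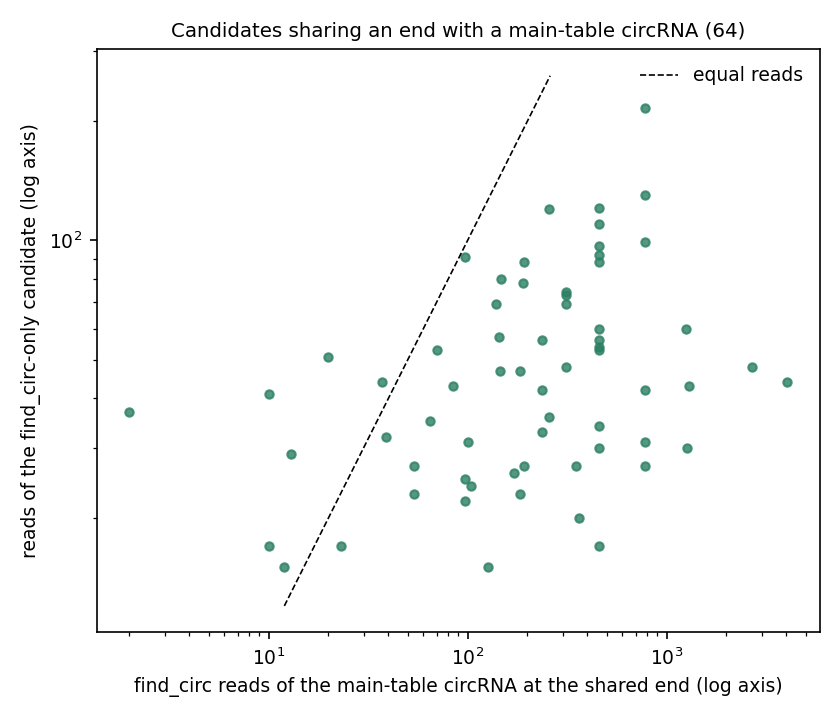
Reads over the 6 libraries (log axes) of the 64 find_circ-only candidates that share an end with a main-table circRNA that find_circ also listed, against the find_circ reads of that circRNA, 1 point each, with a dashed line at equal reads. Of the points, 7 lie above the line.

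Several of the 266 were alternatives at 1 locus. Of 211 loci formed by shared ends, 27 held more than 1 candidate, 82 candidates in all (30.8%). The densest lay at chr17:5511386-5606503, with 11 candidates on the plus strand that used 7 starts and 3 ends. Of these, 7 ended at 5571375 and together had 555 reads, and 3 ended at 5548199 with 253 reads. The main tables had 1 circRNA there, the exonic chr17:5555491-5571375 of the host gene given as ENSRNOG00000018651, listed in 2 libraries, C05 and C06, with 112 and 89 back-splice reads and a circular share of 9.21% to 10.6%. find_circ listed the same circRNA in all 6 libraries, with 68, 72, 78, 57, 115 and 68 reads from C01 to C06. The most abundant of the 11 was chr17:5524117-5548199 with 36, 14 and 36 reads against 20, 44 and 23, and it did not overlap that circRNA. Summed over the 11, the locus had 7943 ± 2126 CPM in C01–C03 and 8140 ± 2344 in C04–C06 (SD, n = 3 each), a difference smaller than the spread between rats. None of the 11 passed, with log2 differences from -0.58 to 0.51.

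**Figure D5:**
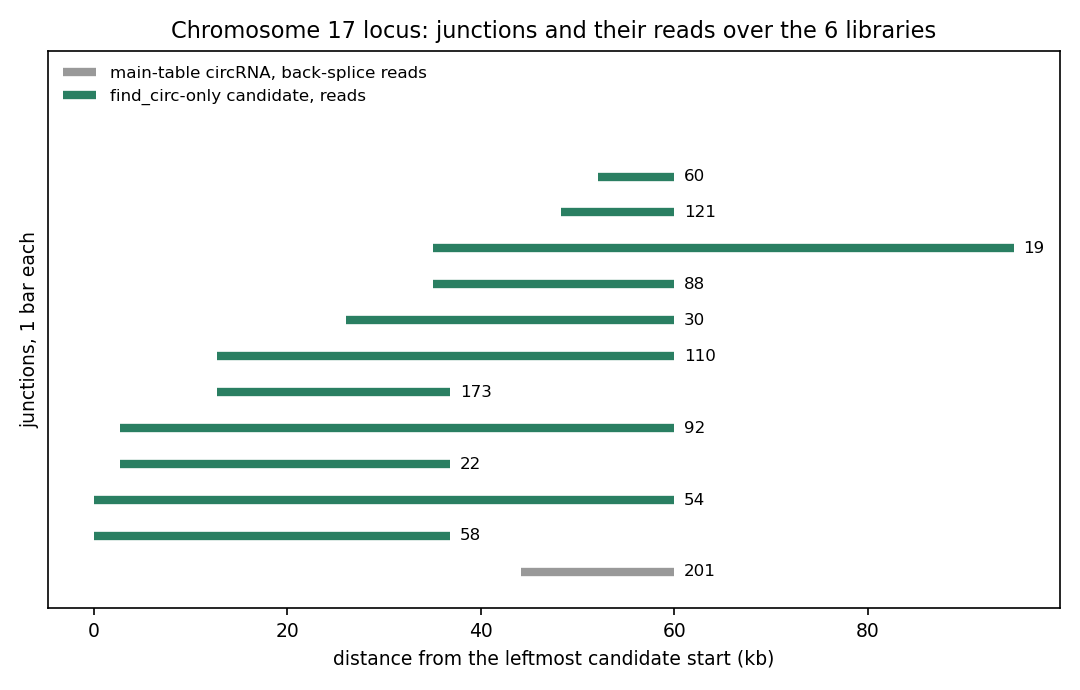
Junctions of the chromosome 17 locus drawn as bars from start to end, by distance from the leftmost start (kb), with reads over the 6 libraries at the right of each bar, in green for the 11 find_circ-only candidates and in grey for the main-table circRNA. The candidates end at 3 positions, and the grey bar with 201 back-splice reads shares the end used by 7 of them.

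The next locus by number of candidates joined through shared ends, chr6:125523808-125594377 on the minus strand, held 7 candidates with 5 starts and 3 ends, 499 reads in all. All 7 lay inside an intergenic circRNA of the main tables, chr6:125438435-125594377, which spans 155943 bases and which find_circ, ending below 100 kb, did not list. The summed locus had 4757, 4158 and 3928 CPM in C01–C03 and 5337, 6053 and 5498 in C04–C06. The groups did not overlap, and the sum was not tested. Individually 5 of the 7 had a negative log2 difference, from -0.93 to -0.30, and the 2 others had 0.08 and 0.31, none past the threshold. The third locus, chr19:34233020-34346224 on the plus strand, held 6 candidates and 224 reads, with 2866, 2385 and 2357 CPM in C01–C03 and 1856, 1757 and 2135 in C04–C06. These sums did not overlap either, in the opposite direction, and were not tested. Its longest candidate, chr19:34249087-34346224, has both ends in main-table circRNAs and had 21, 5 and 6 reads against 2, 6 and 2 (log2 difference 1.60, SE 0.82, edgeR unadjusted p 0.059), of which rat C01 gave the most. Without C01 its log2 difference was 0.70, and leaving out each other rat gave 1.40 to 2.05. Summed in the same way, the fourth locus, chr1:244630341-244728217, had 3381, 2996 and 3311 CPM against 4099, 3612 and 6856, also without overlap. The fifth, chr13:106859710-106944389, overlapped between the groups. Taken singly, 11.1% of all tested candidates did not overlap, and no such share was computed for loci. Joined by overlap in place of shared ends, the chr17 locus still held most candidates, 11, but chr13:106833769-106944389 came next with 8, and chr1:244629853-244728217, the chr6 locus and the chr19 locus held 7 each.

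Near-identical ends were rare. Only chr15:23792824-23793336, with 2 to 7 reads per library, lay within 10 bases of a main-table circRNA at both ends. That circRNA, exonic chr15:23792824-23793342, ends 6 bases later and had 56 to 77 back-splice reads per library and 363 find_circ reads in all, beside 20 for the candidate. Pairs of the 266 within 10 bases at both ends were the chr1 pair of 177 and 181 bases, with 164 and 98 reads, and the chr6 pair that starts 3 bases apart, with 154 and 45.

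Just inside the 6-library rule, 109 of the 266 had 2 reads, the lowest number listed, in at least 1 library, and their median was 28 reads over all libraries. Just outside it, 202 candidates were in 5 lists and in no main table, with a median of 23 reads. They were missing most often from C04 (51, or 25.2%) and least often from C03 (24, or 11.9%). The 3 with most reads were chrX:106306890-106357640 with 17, 9 and 17 reads in C01–C03 and 0, 14 and 9 in C04–C06, chr1:244714474-244757847 with 17, 12 and 10 against 0, 11 and 8, and chr10:37764317-37764822 with 0, 7 and 13 against 5, 17 and 7, where 0 stands for not listed. Had the rule been applied to the other 5 libraries alone, 296 to 330 candidates would have been found, most of them without C04.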

How the data were processed

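The deposited find_circ lists hold counts of reads per junction (all, distinct, and with both anchors unique) and an anchor score, per the file headers; the meaning of these columns follows find_circ's usual format. The deposited main tables hold counts of back-splice and linear reads and a circular fraction, per the file headers. The fraction was recomputed here from the counts, with back-splice reads doubled. The aligner and the callers' versions were not given in the sources used here. DESeq and the mouse build mm9 are named in the submitters' processing notes, although the host IDs are rat Ensembl IDs, so the build is uncertain; coordinates are as the files give them, counted from 1 (find_circ starts were raised by 1). No sequence is printed, since no genome of the files' build was used, and none of 1056 host IDs matched a symbol, so pineal marker genes could not be looked up.

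Candidates reaching 2 reads in 3 or more libraries (2208, including all 266) were tested with edgeR 4.0.16 in R 4.3.3 (quasi-likelihood, TMM, Benjamini-Hochberg, threshold 0.05); the SE is the log2 difference divided by the square root of F. The code was tested on simulated counts with large changes and a spread below that of these data; at the data's own spread an earlier simulation recovered none of the smaller changes it held. Library values were compared by exact permutation (scipy 1.17.1). Paired tests planned between the 266 and the 378 were dropped after their p-values, the smallest the test allows, had been seen, since listing rests on the same reads; those differences are given as description. Named candidates were, by rule, those called or of smallest p (3 per direction), the 10 most abundant, the 3 longest and shortest, the 3 loci with most candidates, the 5 most abundant with a shared end, the 3 highest and lowest in distinct share among the top 50, and 3 just outside. Members and lists were chosen with earlier results of these data known. The TPM table was not used. Alternatives used other normalization and filters, DESeq2 1.42.0, limma-voom 3.58.1, distinct reads, a tolerance of 10 bases, 5 lists, and leaving out each rat.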

Additional observations from a re-analysis of the deposited data

How the results depend on the processing

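Of the 266 candidates, 1 was called in the test as planned and in 9 of the 15 alternatives. Of the 9, the tolerance of 10 bases reused the planned fit and dropped only a candidate not called, so its agreement was fixed. Restricting the fit to candidates listed in all 6 libraries gave 2 calls and limma-voom 3, and leaving out 1 rat gave 0 to 1. The call at chr5:90818736-90827570 was kept in 10 of 14 alternatives and was lost without C03, C04, C05 or C06. The group difference in the share of list reads, -0.38 percentage points, was 0.012 without C06 and ranged from -0.59 to 0.012 when 1 rat was left out; that in the distinct share, -0.58, was 0.065 without C06 and ranged from -1.32 to 0.065. Over all tested candidates 2 were called, but 4 when restricted to those in all 6 lists, 6 with limma-voom, 1 with distinct reads or without C01, and 0 without C03, C04, C05 or C06. The exact permutation test of the share of list reads and of the distinct share cannot go below p = 0.1 with 3 against 3. It could therefore not have called a difference in either share, and nothing is concluded from it. Of the main-table circRNAs that share an end, 35 could be tested and 4 were called, beside 12 of all 772 tested (1.55%). For 3 of the 4, the counts were 0 in C01–C03 because the main tables did not list them there. When 1 rat was left out, 0 to 6 of the 30 to 33 that could be tested were called, a check chosen after seeing the data. The count of 0 came without C04, C05 or C06, where 3 of the 4 fall under the filter and are not tested. The cause of the other changes was not tested. The share of candidates with a shared end (22.3% to 26.2%) and the median span (11278 to 12456.5 bases) stayed within their 95% intervals in all 8 alternatives each. These alternatives kept all or nearly all of the 266, so close values were largely fixed in advance. Limiting spans to 100 kb changed nothing, since every listed span is shorter. No paired analysis was possible because the rat numbers of both groups differ. The median depth was 7.25 reads per library over the 266, and whether depth limited the calls was not tested.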
